A study of Danio rerio with 18 samples.

Results

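Probes for 5 genes of the exocrine pancreas and of the absorptive gut lining were followed in zebrafish larvae exposed to bisphenol A (BPA). BPA is used to make polycarbonate plastic and epoxy resin and has weak oestrogenic activity. The genes were chosen by symbol and probe number, as 5 of 9264 gene symbols and 5 of 22980 probes on a spotted oligonucleotide array, of which 3878 had enough measured ratios to be tested. The proteases were prss1 (probe 5460385), cpb1 (probe 5462085) and prss60.2 (probe 5467629), and the enterocyte genes were vil1 (probe 5455569) and fabp2 (probe 5456042). All 5 were among the probes tested. In all, 2 further probes carried a member's symbol, one for vil1 (probe 5452263) and one for cpb1 (probe 5463994), and neither had enough ratios.

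Wild-type larvae were kept from 3 h after fertilization for 7 days in BPA at 500, 1500 or 4500 µg/L dissolved with ethanol, or in the ethanol vehicle alone as the control. RNA of pooled whole larvae was labelled with Cy5 and hybridized together with Cy3-labelled RNA of whole adult fish, mostly male, which served as a common reference on every array. The control group had 4 arrays, the 500 µg/L group 5, the 1500 µg/L group 3 and the 4500 µg/L group 4. Of the 18 scans, all labelled as separate replicates, 2 pairs held the same array, with 99.83% and 99.98% of Cy5 values identical, and each pair was averaged and counted as 1 array.

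The exocrine pancreas makes digestive proteases as inactive zymogens in its acinar cells and releases them into the gut lumen, where trypsin cleaves and so activates the others. Enterocytes take up the products through a brush border of microvilli, whose actin cores are bundled by villin, and carry long-chain fatty acids in the cytosol bound to small fatty acid-binding proteins. In zebrafish both tissues are formed within the first days of life, and larvae begin to feed as the yolk is used up. The RNA came from whole bodies, so fewer acinar cells or enterocytes and less RNA in each such cell cannot be told apart.

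The values given are log2 ratios of larval over adult signal, so that 0 is an equal signal in both and -1 is a larval signal at 0.5 of the adult one. The dyes were not swapped, so a dye bias of a probe is part of its level, though it is shared by all groups. On 4 arrays the median Cy3 background was under 150 scanner units (92, 110, 111 and 129), against 162 to 247 on the other 12. These 4 were replicates 1 and 3 at 1500 µg/L and replicates 2 and 3 at 4500 µg/L, and no control array or 500 µg/L array was among them. Between 5127 and 19980 of 23232 spots per scan had a ratio kept by the authors.

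None of the 5 genes passed an adjusted p of 0.05 against the control at any concentration (limma, Benjamini-Hochberg over 3878 probes). At 1500 and at 4500 µg/L all 5 had a lower mean ratio than the control, where 57.9% and 64.7% of all probes did. At 500 µg/L, 3 of 5 were lower, against 46.1% of all probes. The median log2 fold change of the 5 was 0.00 at 500, -0.57 at 1500 and -0.43 at 4500 µg/L, beside 0.02, -0.09 and -0.17 over all probes tested. With a term for the low Cy3 background, 3 of 5 were lower at 1500 µg/L and 3 of 5 at 4500 µg/L, as prss1 and cpb1 changed sign.

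The background of these counts was low for adjusted calls. An adjusted p of 0.05 was passed by 0%, 0% and 0.0258% of probes at 500, 1500 and 4500 µg/L, which was 1 probe at 4500 µg/L, with a higher ratio. An unadjusted p of 0.05 was passed by 57, 279 and 796 probes (1.47%, 7.19% and 20.5%). Of the 5 genes, 0, 0 and 1 passed it, the one being vil1 at 4500 µg/L, so that the share of the 5 was close to that of all probes there. A 2-step rule with the thresholds of the study's methods was also applied, here with limma on 16 arrays and 3878 probes. It was an F-test over the groups at a false discovery rate of 0.2, followed by an unadjusted p of 0.05. No probe (0%) met this rule at any concentration. The paper used its own normalization and tests on 18 arrays, and reports genes that passed at each concentration. The 0% found here is thus not a repeat of the paper's count.

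**Figure D1:**
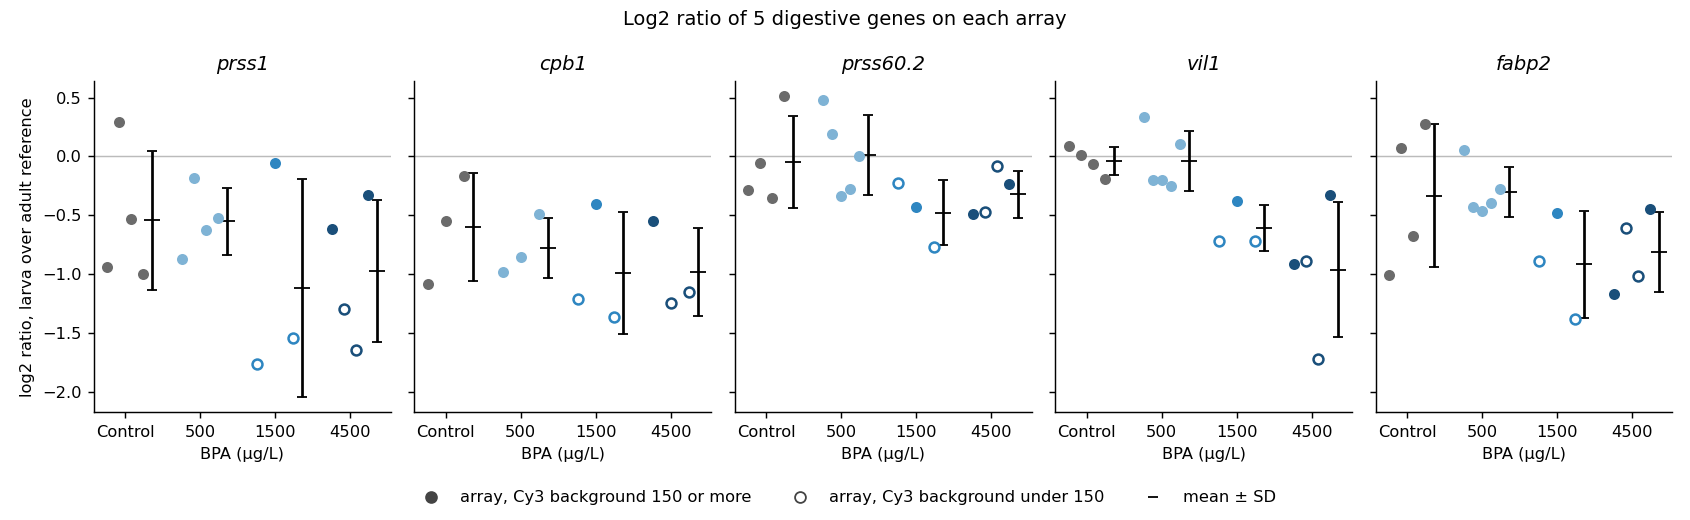
Log2 ratio of larval over adult reference signal (y axis) on each array for prss1, cpb1, prss60.2, vil1 and fabp2, by BPA concentration in µg/L (x axis). Open circles are arrays with a Cy3 background under 150 scanner units, filled circles the others, and bars give the mean ± SD. All 3 vil1 values at 1500 µg/L and all 4 at 4500 µg/L lie below the 4 control values, and the lowest prss1 and cpb1 values are open circles.

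vil1 encodes villin, which bundles and severs actin filaments in the brush border of enterocytes and of kidney tubule cells. Its log2 ratios were 0.09, 0.01, -0.06 and -0.19 on the 4 control arrays, and 0.34, -0.20, -0.20, -0.25 and 0.10 on the 5 arrays at 500 µg/L. They were -0.72, -0.38 and -0.71 at 1500 µg/L, and -0.91, -0.89, -1.71 and -0.32 at 4500 µg/L. The control and 500 µg/L arrays overlapped, whereas every array at 1500 and at 4500 µg/L lay below every control array. Such a separation downwards was found in 5.34% of all probes at 1500 µg/L and in 6.06% at 4500 µg/L, and in 1 of the 5 genes.

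The mean vil1 ratio was -0.96 ± 0.57 at 4500 µg/L (SD, n = 4) and -0.04 ± 0.12 in the control (SD, n = 4), a log2 fold change of -0.92 ± 0.26 (SE), or 0.53 of the control. limma gave an adjusted p of 0.138, and vil1 was number 45 of the 3878 probes in order of p. The exact two-sided permutation test of the 4 against 4 arrays gave p = 0.0286, the smallest that this design allows. Its Benjamini-Hochberg adjusted p over the family of 15 such comparisons of the 5 genes was 0.429. At 1500 µg/L the mean was -0.60 ± 0.20 (SD, n = 3) and the log2 fold change -0.57 ± 0.28 (SE, adjusted p = 0.647 by limma). The exact permutation p was 0.0571 there, again the smallest allowed, and 0.429 after adjustment over the 15 comparisons. At 500 µg/L the mean was -0.04 ± 0.25 (SD, n = 5), with a log2 fold change of 0.00 ± 0.25 (SE).

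Among the BPA groups, vil1 differed by -0.92 ± 0.25 (SE) between 4500 and 500 µg/L, with an adjusted p of 0.0795 by limma. It differed by -0.56 ± 0.27 between 1500 and 500 µg/L (adjusted p = 0.613 by limma) and by -0.36 ± 0.28 between 4500 and 1500 µg/L (adjusted p = 0.943 by limma). The F-test over all 4 groups gave vil1 a false discovery rate of 0.254, just above the limit of the 2-step rule. None of these passed its threshold.

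vil1 averaged lower on the low-background arrays than on the others of its group. At 4500 µg/L the mean was -1.30 on the 2 arrays with a low Cy3 background and -0.62 on the other 2, and at 1500 µg/L -0.72 on 2 arrays and -0.38 on the remaining one. On each of the 3 arrays at these concentrations with a Cy3 background of 150 or more, vil1 was still below all 4 control arrays. The log2 fold change at 4500 µg/L within those arrays was -0.58 (adjusted p = 0.353 by limma), and with the low background as a term in the fit over all arrays it was -0.65 (adjusted p = 0.356 by limma). The part of the background in the value was not tested further.

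On average, the difference in vil1 was on the larval side of the array, which was not tested, and single arrays overlapped. After the channels were normalized singly, its Cy5 signal averaged 10.37 ± 0.93 on the log2 scale at 4500 µg/L and 11.23 ± 0.54 in the control (SD, n = 4 each), while its Cy3 signal was 11.33 ± 0.57 at 4500 µg/L and 11.27 ± 0.46 in the control. As scanned, the Cy5 signal above background was 2733, 747, 454 and 1740 units on the 4500 µg/L arrays, against 3492, 3095, 2948 and 1946 units on the control arrays. The scanned Cy3 signal was 3641, 1965, 1919 and 1541 units, against 2743, 2643, 2665 and 1479 units. The normalized Cy5 signal was 11.75 on replicate 4 at 4500 µg/L and 10.55 on control replicate 4. vil1 was the brightest of the 5, above 98.6% of all probes in average signal, with a ratio kept on all 16 arrays.

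**Figure D2:**
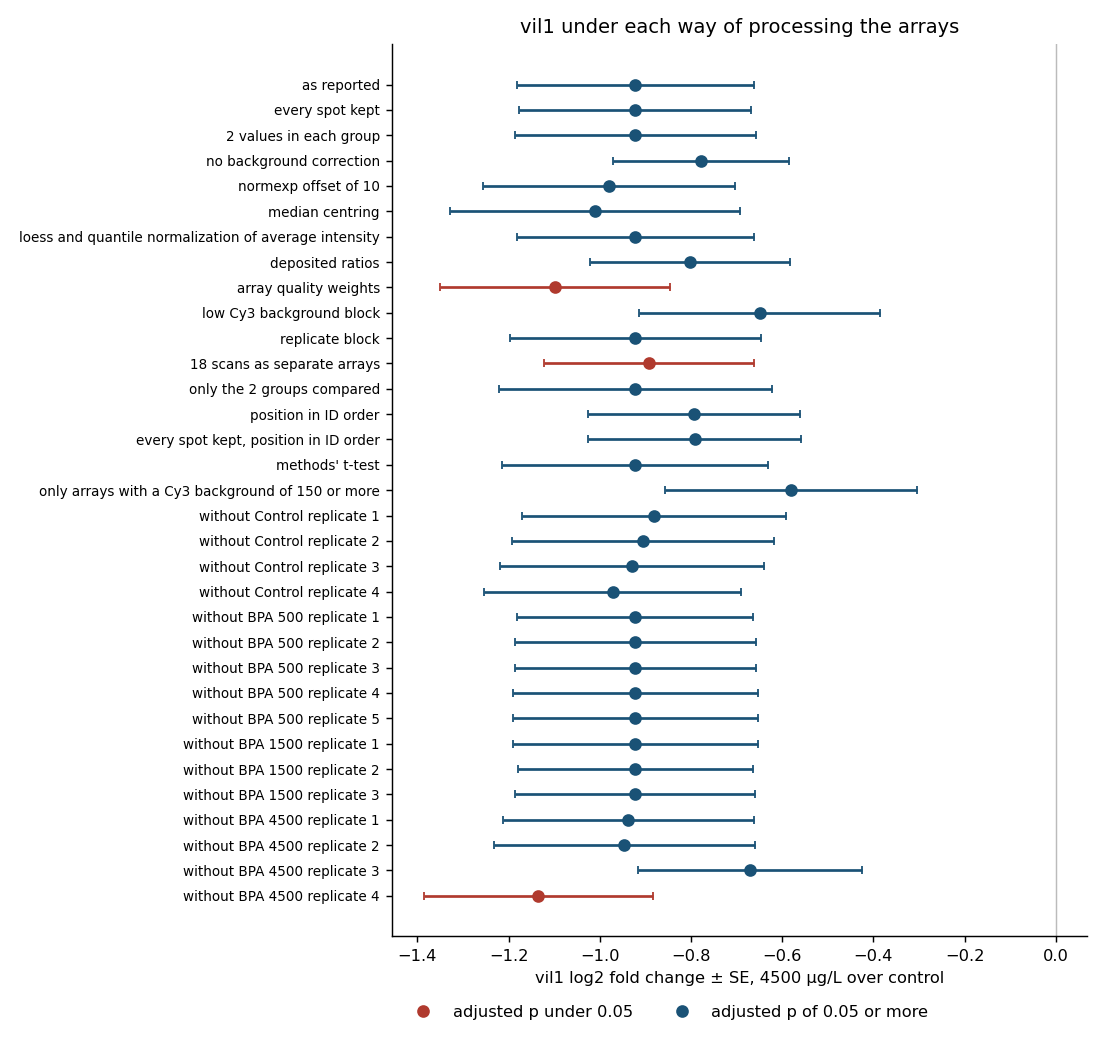
Log2 fold change of vil1 at 4500 µg/L over control (x axis, ± SE from limma, save for the methods' own test) under each way of processing the arrays (y axis). Red points have an adjusted p under 0.05 and blue points do not. All points lie below 0, between -1.13 and -0.58, and 3 of them are red. Settings that could not change the vil1 group means, such as leaving out arrays of other groups, lie at -0.92 by construction.

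The vil1 value stayed negative in all 32 alternative ways of processing the arrays, with log2 fold changes between -1.13 and -0.58. Adjusted p-values lay between 0.0101 and 0.424 by limma (0.424 from the methods' test). Many of the 32 could not move the fold change from -0.92, as they left the vil1 means of both groups unchanged. Among them were leaving out arrays of groups not compared, keeping every spot and changing only the test. For these, the unchanged sign is no evidence of stability. vil1 passed an adjusted p of 0.05 in 3 of the 32, with array quality weights (-1.10, adjusted p = 0.0200), with all 18 scans counted as separate arrays (-0.89, adjusted p = 0.0427) and without replicate 4 at 4500 µg/L (-1.13, adjusted p = 0.0101), all by limma. Counting 18 scans treats repeated scans of an array as replicates, so its p does not rest on independent arrays. The shares of probes called under these settings were 8.92% of 3878, 4% of 6420 and 11.8% of 3618. In the values reported above it was 0.0258% of 3878, so that more probes passed in general. Replicate 4 held the value nearest to the control. With every spot kept, over 22980 probes, the adjusted p of vil1 was 0.0536 and its false discovery rate in the F-test 0.119, so that it met the 2-step rule, as did 5.89% of those probes. An adjusted p of 0.05 was passed by 3.08% of them at that concentration (707 probes, 639 higher and 68 lower).

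fabp2 encodes the intestinal fatty acid-binding protein. Its log2 ratios were -1.0, 0.07, -0.67 and 0.28 on the control arrays and 0.05, -0.43, -0.46, -0.39 and -0.28 at 500 µg/L. They were -0.88, -0.48 and -1.38 at 1500 µg/L and -1.17, -0.60, -1.01 and -0.44 at 4500 µg/L. Every group overlapped with the controls, although 1 of 3 arrays at 1500 µg/L and 2 of 4 at 4500 µg/L lay below the lowest control array.

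The mean fabp2 ratio was -0.81 ± 0.34 at 4500 µg/L (SD, n = 4) and -0.33 ± 0.61 in the control (SD, n = 4), with a log2 fold change of -0.47 ± 0.29 (SE, adjusted p = 0.338 by limma). At 1500 µg/L the mean was -0.91 ± 0.45 (SD, n = 3) and the log2 fold change -0.58 ± 0.31 (SE, adjusted p = 0.647 by limma), and at 500 µg/L it was 0.03 ± 0.27. The exact two-sided permutation p-values for fabp2 were 0.257 at 4500 µg/L and 0.286 at 1500 µg/L. Within the 4500 µg/L group, fabp2 averaged -0.81 on the low-background arrays and -0.81 on the others, but at 1500 µg/L it averaged -1.13 on the 2 low-background arrays and was -0.48 on the remaining one. Without the low-background arrays its log2 fold change at 1500 µg/L was -0.15 (adjusted p = 0.997 by limma), and with the low background as a term -0.41 (adjusted p = 0.935 by limma). In all 32 alternatives the fabp2 values at 1500 and 4500 µg/L stayed negative, and none passed. They lay between -0.82 and -0.15 at 1500 µg/L and between -0.70 and -0.21 at 4500 µg/L. As for vil1, several alternatives, such as leaving out arrays of other groups, could not move these values.

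prss1 encodes a trypsin, the protease that activates the other pancreatic zymogens. Its log2 ratios were -0.94, 0.29, -0.53 and -0.99 on the control arrays and -0.87, -0.19, -0.63 and -0.52 on the 4 arrays at 500 µg/L with a kept ratio. They were -1.76, -0.06 and -1.54 at 1500 µg/L and -0.62, -1.29, -1.64 and -0.33 at 4500 µg/L. The 4 lowest values were those of the 4 arrays with a low Cy3 background, and the other 3 arrays at these concentrations lay within the range of the controls.

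The mean prss1 ratio was -0.97 ± 0.60 at 4500 µg/L (SD, n = 4) and -0.54 ± 0.59 in the control (SD, n = 4), with a log2 fold change of -0.43 ± 0.36 (SE, adjusted p = 0.497 by limma). At 1500 µg/L the log2 fold change was -0.58 ± 0.39 (SE, adjusted p = 0.674 by limma) and at 500 µg/L -0.01 ± 0.36. With the low background as a term, the values turned to 0.19 at 4500 µg/L (adjusted p = 0.807 by limma) and 0.25 at 1500 µg/L (adjusted p = 0.949 by limma), and on the arrays with a higher background they were 0.07 and 0.48. No control array had a low background, so that the low-background arrays held no comparison with the control.

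The normalized channel means of prss1 differed between the 2 concentrations. At 1500 µg/L the normalized Cy5 signal averaged 8.81 ± 0.73 (SD, n = 3), against 8.81 ± 0.53 in the control (SD, n = 4), and the Cy3 signal of the adult reference 9.93 ± 0.73 against 9.35 ± 0.40 on the log2 scale. At 4500 µg/L the Cy5 signal averaged 8.20 ± 0.75 and the Cy3 signal 9.17 ± 0.26 (SD, n = 4 each). In these normalized means the ratio at 1500 µg/L was low with a bright reference signal, and that at 4500 µg/L with a dim larval signal. As scanned, the Cy3 signal above background at 1500 µg/L was 884, 794 and 974 units. These lay within the range of the control values of 1088, 738, 789 and 821 units. The scanned Cy5 signal was 230, 785 and 322 units at 1500 µg/L, against 625, 804, 481 and 412 units in the control. On replicate 3 at 4500 µg/L the Cy5 spot was only 1.4 times its local background.

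cpb1 encodes carboxypeptidase B, which removes basic residues from the ends of peptides cut by trypsin. Its log2 ratios were -1.08, -0.54 and -0.17 on the 3 control arrays with a kept ratio and -0.98, -0.85 and -0.49 on 3 of the 5 arrays at 500 µg/L. They were -1.21, -0.40 and -1.37 at 1500 µg/L and -0.55, -1.24 and -1.15 on 3 of the 4 arrays at 4500 µg/L. As with prss1, the 4 low-background arrays held the 4 lowest values, and the others overlapped with the controls.

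The mean cpb1 ratio was -0.98 ± 0.38 at 4500 µg/L (SD, n = 3) and -0.60 ± 0.46 in the control (SD, n = 3), with a log2 fold change of -0.38 ± 0.33 (SE, adjusted p = 0.509 by limma). It was -0.39 ± 0.33 at 1500 µg/L (adjusted p = 0.721 by limma) and -0.18 ± 0.33 at 500 µg/L. With the low background as a term the values were 0.13 at 4500 µg/L and 0.12 at 1500 µg/L (adjusted p = 0.892 and 0.972 by limma). The normalized Cy5 signal of cpb1 was 7.83 ± 0.31 at 4500 µg/L and 8.46 ± 0.40 in the control, and its Cy3 signal 8.67 ± 0.13 at 4500 µg/L and 8.93 ± 0.27 in the control (log2 scale, SD, n = 4 each).

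prss60.2 encodes a serine protease of the trypsin-like family. Its log2 ratios were -0.29, -0.06, -0.35 and 0.51 on the control arrays and 0.48, 0.19, -0.34, -0.28 and 0.00 at 500 µg/L. They were -0.23, -0.43 and -0.77 at 1500 µg/L and -0.49, -0.47, -0.08 and -0.23 at 4500 µg/L. Here the groups overlapped throughout, and the low-background arrays did not stand apart.

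The mean prss60.2 ratio was -0.32 ± 0.20 at 4500 µg/L (SD, n = 4) and -0.05 ± 0.39 in the control (SD, n = 4), with a log2 fold change of -0.27 ± 0.25 (SE, adjusted p = 0.535 by limma). At 1500 µg/L the log2 fold change was -0.43 ± 0.27 (SE, adjusted p = 0.663 by limma), and at 500 µg/L 0.06 ± 0.24. In all 32 alternatives the values of prss60.2 stayed negative at both higher concentrations, between -0.62 and -0.24 at 1500 µg/L and between -0.45 and -0.08 at 4500 µg/L. None of them passed, and several alternatives, such as leaving out arrays of other groups, could not move these values.

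**Figure D3:**
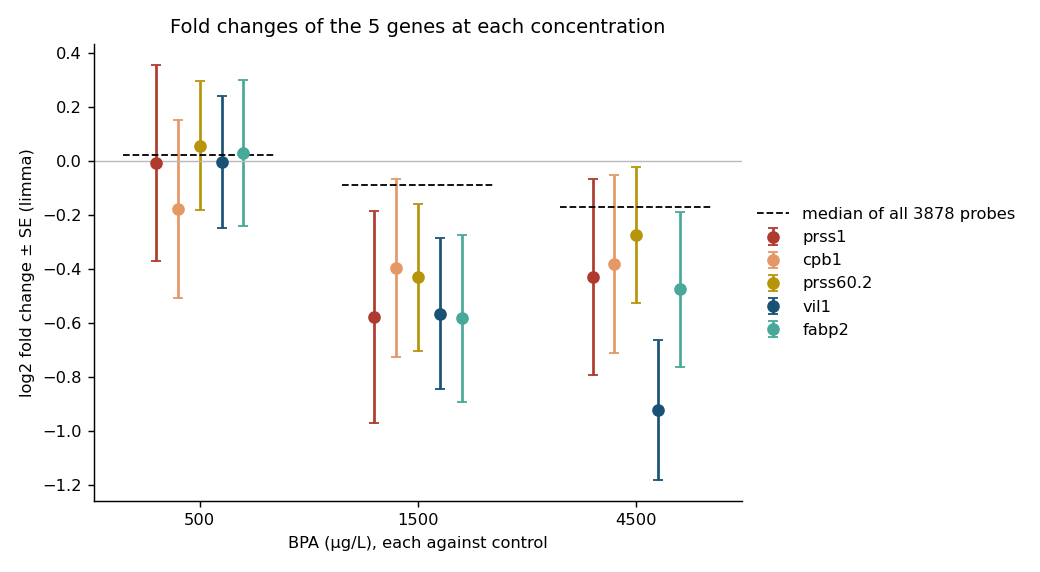
Log2 fold change ± SE from limma (y axis) of the 5 genes at 500, 1500 and 4500 µg/L BPA against control (x axis), with the median of all 3878 probes as a dashed line. The 5 values scatter around 0 at 500 µg/L, lie between -0.58 and -0.39 at 1500 µg/L, and at 4500 µg/L vil1 alone lies below -0.58.

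**Figure D4:**
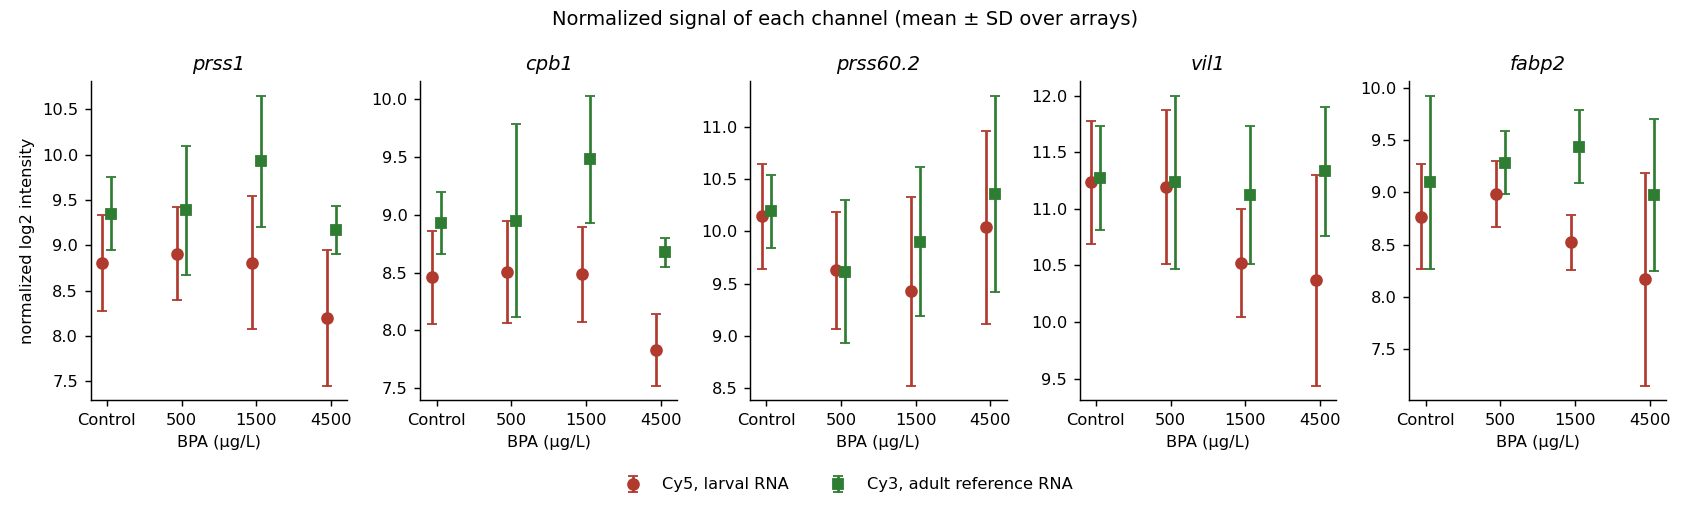
Normalized log2 intensity (y axis, mean ± SD over arrays) of the larval Cy5 channel and the adult reference Cy3 channel by BPA concentration in µg/L (x axis) for the 5 genes. The vil1 Cy5 mean is 10.37 at 4500 µg/L and 11.23 in the control, with Cy3 means of 11.33 and 11.27, and the Cy3 mean of prss1 is 9.93 at 1500 µg/L and 9.35 in the control.

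The levels differed among the 5 genes in where they stood within an array, which compares each probe with its own adult signal. In control larvae the mean ratio was above that of 8.10% of probes for prss1, 6.63% for cpb1, 20.5% for fabp2, 46.5% for prss60.2 and 47.1% for vil1. Over the concentrations 500, 1500 and 4500 µg/L the vil1 mean stood above 42.8%, 14.0% and 5.57% of probes, and that of fabp2 above 14.2%, 3.61% and 10.3%. prss1 and cpb1 were near the bottom in every group, between 1.24% and 8.10%. As a ratio of larval over adult signal, the control mean was 0.69 for prss1 and 0.66 for cpb1, with any dye bias of the probe included.

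The second probes of vil1 and cpb1 went the other way from the first. The ratios of vil1 probe 5452263, with every spot kept, were -0.16, 0.01, -0.84 and -0.17 on the control arrays and -1.09, -0.90, -0.07, -1.01 and -0.66 at 500 µg/L. Those at 1500 µg/L were 0.24, -0.38 and 0.27, and those at 4500 µg/L 0.21, 0.22, 0.61 and -0.16. The groups overlapped. Its mean at 4500 µg/L was higher than in the control by 0.51 ± 0.27 (SE, adjusted p = 0.276 by limma), whereas the first vil1 probe had -0.92. Between 4500 and 500 µg/L the second probe differed by 0.97 ± 0.26 (SE, adjusted p = 0.0932 by limma). With every spot kept, the first probe had -0.92 ± 0.24 there (SE, adjusted p = 0.0931 by limma), a similar size in the other direction. The F-test false discovery rate was 0.161 for the second probe and 0.119 for the first. Across the 16 arrays the 2 vil1 probes had a Pearson r of -0.75, as a description, and of -0.51 on the 12 arrays with a higher Cy3 background.

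For cpb1 probe 5463994 the ratios, with every spot kept, were -1.13, -0.88, -0.60 and -0.65 on the control arrays and -0.09, -0.99, 0.04, -0.76 and -1.25 at 500 µg/L. They were 0.08, -0.54 and 0.32 at 1500 µg/L and 1.02, 0.52, -0.06 and -0.14 at 4500 µg/L, so that all arrays of the 2 higher concentrations lay above the 4 control arrays. Such a separation upwards was found in 6.35% of all 22980 probes at the lower and 5.59% at the higher of these concentrations. This probe's normalized Cy5 signal averaged 7.41 ± 0.78 at 4500 µg/L and 7.26 ± 0.31 in the control (log2, SD, n = 4). Its Cy3 signal was 7.08 ± 0.27 and 8.08 ± 0.16, so the adult reference signal differed more than the larval one. On replicates 2, 3 and 4 at 4500 µg/L the Cy5 spot was only 1.4, 1.2 and 1.2 times its local background.

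The log2 fold change of this cpb1 probe was 1.15 ± 0.32 at 4500 µg/L (SE, adjusted p = 0.0536 by limma) and 0.77 ± 0.34 at 1500 µg/L (SE, adjusted p = 0.418 by limma), and it met the 2-step rule at both, as did 4.14% of probes at the lower and 5.89% at the higher of these concentrations. At 4500 µg/L an adjusted p of 0.05 was passed by 3.08% of all probes with every spot kept. This probe passed it by limma with array quality weights (1.15, adjusted p = 0.0445). With 18 scans as separate arrays, which treats repeated scans as replicates, it passed as well (1.12, adjusted p = 0.0279 by limma). It also passed without replicate 4 at 4500 µg/L (1.31, adjusted p = 0.0186), replicate 3 at 500 µg/L or replicate 2 at 1500 µg/L. With kept ratios, the weights called 8.92% of 3878 probes, 18 scans 4% of 6420 and leaving out replicate 4 at 4500 µg/L 11.8% of 3618. The shares under these alternatives with every spot kept are not given here. Leaving out an array at 500 or 1500 µg/L could not move the fold change of this probe. On the arrays with a higher Cy3 background alone it was 1.26 (adjusted p = 0.257 by limma).

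Both second probes were dim. The median Cy5 signal above background was 204 units for vil1 probe 5452263 and 147 units for cpb1 probe 5463994, against 2519 units for vil1 probe 5455569 and 362 units for cpb1 probe 5462085. Their average signals were above 31.3% and 26.4% of all probes, against 98.6% and 76.0% for the first probes, and the authors kept a ratio on 6 and 5 of the 16 arrays. The array descriptions do not say which transcript or part of the gene each probe matches, and what makes the 2 probes of a gene differ was not tested.

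**Figure D5:**
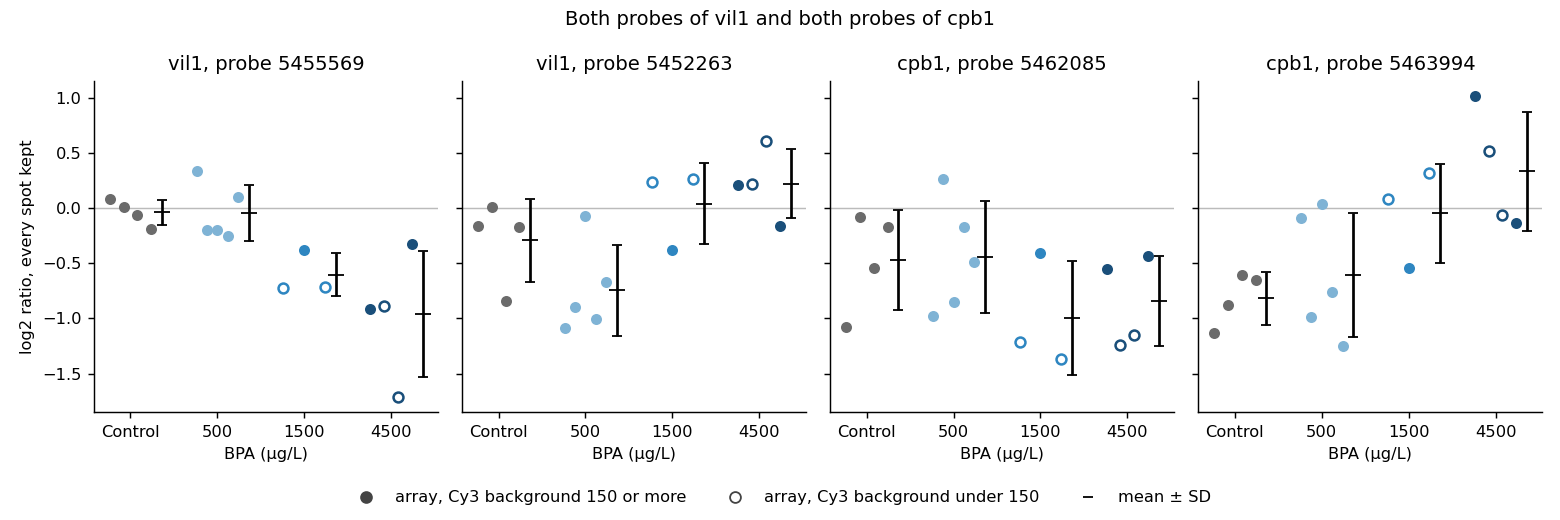
Log2 ratio of larval over adult signal with every spot kept (y axis) by BPA concentration in µg/L (x axis) for both probes of vil1 and both probes of cpb1, with open circles for arrays with a Cy3 background under 150 scanner units and the mean ± SD as bars. At 4500 µg/L the first probes lie below their control means and the second probes above them, at 0.22 for vil1 probe 5452263 and 0.33 for cpb1 probe 5463994.

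The genes did not form one pattern across the arrays. Over all 16 arrays, with every spot kept, prss1 and cpb1 had a Pearson r of 0.83, and prss60.2 and fabp2 one of 0.77, whereas prss1 and prss60.2 had 0.13. On the 12 arrays with a higher Cy3 background these were 0.62, 0.78 and -0.31. The r of prss1 with vil1 was 0.57 over 16 arrays and -0.17 over the 12. All probes share the arrays, the reference RNA and the background of each array, so these values describe the arrays and were not tested.

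The probes with the most similar pattern, among 11471 other probes with a symbol, were mostly not digestive genes. For vil1 they were cbr1l, rpl6 and hoxc11b (r = 0.94 each), and for prss1 pvalb2 (0.92), nup205 (0.88) and rps4x (0.88). For cpb1 they were psmb1 (0.88), mrps23 (0.86) and prss1 itself (0.83). For prss60.2 they were onecutl (0.89), sub1a (0.87) and foxk1 (0.86), and for fabp2 gfap (0.89), zgc:101562 (0.84) and cfl1 (0.83). prss1 was thus the one member among the 15 probes named.

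Of the other pancreatic proteases on a list of 24 genes, 2 more were tested, and neither was lower. prss59.1, a further trypsin, had a log2 fold change of 0.09 ± 0.34 at 4500 µg/L (SE, adjusted p = 0.898 by limma) and ela3l, an elastase, one of 0.42 ± 0.31 (adjusted p = 0.443 by limma). The 5 tested members of the list, prss1, cpb1 and prss60.2 included, had a median of -0.27 at 4500 µg/L, beside -0.17 over all probes, with 0 of 5 past an unadjusted p of 0.05. With every spot kept, 16 probes without the 5 genes' own had a median of 0.09 at 4500 µg/L, beside 0.02 over all 22980.

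Of the probes for pancreatic amylase, which digests starch, 2 had enough kept ratios. amy2a had 0.22 ± 0.27 and amy2al1 -0.16 ± 0.24 at 4500 µg/L (log2 fold change ± SE, adjusted p = 0.650 and 0.705 by limma). The third, amy2al2, could be tested only with every spot kept and had 1.31 ± 0.44 (adjusted p = 0.0966 by limma). It was dimmer, above 39.4% of all probes in average signal. It passed the threshold with array quality weights (1.61, adjusted p = 0.0356 by limma) and without replicate 4 at 4500 µg/L (1.71, adjusted p = 0.0147 by limma), but was 0.47 without the low-background arrays and 0.73 without replicate 2 at 4500 µg/L (adjusted p = 0.602 and 0.272 by limma). The amylase probes thus lay on both sides of 0. With kept ratios, array quality weights called 8.92% of all probes and leaving out replicate 4 at 4500 µg/L 11.8%, against 0.0258% without these changes. With every spot kept and no other change 3.08% were called, and the shares under the 2 settings are not given here.

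Among the genes of the enterocyte list, 3 more had enough kept ratios. enpep, a brush border aminopeptidase, had -0.10 ± 0.23 at 4500 µg/L (SE, adjusted p = 0.826 by limma). apobb.1, an apolipoprotein B of lipid export, had -0.39 ± 0.26 (adjusted p = 0.395 by limma), and apoa1a, an apolipoprotein of high-density lipoprotein, had 0.78 ± 0.33 (adjusted p = 0.20 by limma). The apobb.1 probes 5466055 and 5464941, tested only with every spot kept, had 0.79 ± 0.29 and -0.02 ± 0.29 (adjusted p = 0.118 and 0.978 by limma). Of the 5 genes of the list, vil1 was below and apoa1a above the control at an unadjusted p of 0.05, where 14.1% of all probes were below and 6.4% above. With every spot kept, the 21 enterocyte probes, those of vil1 and fabp2 included, had a median of -0.02 at 4500 µg/L, beside 0.02 over all probes, and 1 was called. It was rbp2b, a retinol-binding protein gene, which was higher by 1.77 ± 0.37 (SE, adjusted p = 0.0224 by limma), where 3.08% of all probes were called. It is named for that call, after its value was seen, and went the other way from vil1. At an unadjusted p of 0.05 by limma, 4 of the 21 were higher and 3 lower. The higher ones were rbp2b, apobb.1 probe 5466055, apoa1a and fabp6 (0.79 ± 0.32, adjusted p = 0.160 by limma). The lower ones were vil1 probe 5455569, slc15a1b (-0.77 ± 0.29) and the dim alpi.1 (-0.58 ± 0.26), the latter 2 with adjusted p = 0.132 and 0.204 by limma. The related alpi.2 went the other way from alpi.1 (0.47 ± 0.25, adjusted p = 0.284 by limma). The share of all probes past that limit with every spot kept is not given here. The call of rbp2b was lost without control replicate 1, 2 or 3 or without replicate 1 or 2 at 4500 µg/L (1.47 to 1.83, adjusted p = 0.0572 to 0.0816 by limma), with the low background as a term or without the low-background arrays (1.6 and 1.77, adjusted p = 0.148 in both by limma), without background correction (0.89, adjusted p = 0.0534 by limma) and by the test that the methods name. The 2 gut transcription factors with enough kept ratios, cdx1a and gata4, had -0.17 ± 0.23 and -0.57 ± 0.33 (adjusted p = 0.692 and 0.323 by limma).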

How the data were processed

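The authors deposited scanner tables with the foreground and background intensity of each spot in 2 channels, and a table of log2 ratios after Lowess normalization, from which ratios of spots that failed their filter were left out. The sources used here give no genome build for the probes, so no coordinates are given. Of 23232 spots, 11724 had a gene symbol. Symbols were updated with a RefSeq gene table of the assembly GRCz12tu, 8000 of them through an older name. In one control file 16654 lines were shifted by a column and were shifted back.

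From the intensities, log2 ratios were computed in limma 3.58.1 (R 4.3.3) with normexp background correction (offset 50), loess within each array, and averaging of spots with one accession. Ratios that the authors had not kept were left out, and probes with at least 3 values in each group were tested (3878 probes) with a linear model over 16 arrays and Benjamini-Hochberg adjustment, at 0.05. Exact two-sided permutation tests used scipy 1.17.1. The limma fit and a t-test were tried on simulated data, and the permutation test was not. The simulated errors were independent and normal, with no effect of the low Cy3 background. Per the paper, each biological replicate was a pool of larvae, and several repeats of the experiment supplied the material. It does not say whether each replicate came from its own repeat. Other filters, background corrections, normalizations, weights, blocks and left-out replicates were tried. The number of arrays limits the precision.

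The named genes were the 5 members, further probes with their symbols, all genes of each list with enough kept ratios and the 3 probes most alike to each member. List genes measured only with every spot kept are given as counts and medians for the protease, enterocyte and endocrine pancreas lists. For the liver list a count is given, and for the other lists neither. Those named among them were picked after their values were seen. The members and lists were chosen with earlier results of these data known. Same-numbered replicates did not vary together (21 pairs, median r = -0.03, lowest -0.45), and were not treated as pairs.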

Additional observations from a re-analysis of the deposited data

How the results depend on the processing

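Of the 15 comparisons of the 5 genes with the control, 450 values under alternatives were computed, of which 408 kept their direction and their side of the threshold, 39 changed direction and 3 passed the threshold. The 3 were vil1 at 4500 µg/L with array quality weights (-1.10), with 18 scans as separate arrays (-0.89) and without replicate 4 at 4500 µg/L, where leaving out single replicates gave -1.13 to -0.67. Counting 18 scans treats repeated scans of an array as replicates. The largest number of changes in direction was at 500 µg/L, where the values lay near 0. With the replicate number as a block (replicate block), vil1 at 4500 µg/L was -0.92 (adjusted p = 0.185 by limma) and no call changed among the 5 genes.

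At 500 µg/L, prss1 turned to 0.065 with every spot kept, 0.0064 with a normexp offset of 10, 0.14 with median centring, 0.025 with array quality weights, 0.014 with the replicate block, 0.083 with 18 scans and 0.014 with every spot kept and position in ID order, that is, after subtracting a running median over the order of probe numbers. cpb1 turned to 0.021, 0.039 and 0.043 with every spot kept, array quality weights, and every spot kept with position in ID order. prss60.2 turned to -0.0090 with the deposited ratios and -0.054 with 18 scans. vil1 turned to 0.15 with median centring, 0.027 with 18 scans, and 0.11 with position in ID order, with kept ratios and with every spot. fabp2 turned to -0.027 without background correction, -0.047 with the deposited ratios and -0.091 with 18 scans. Leaving out single replicates gave -0.16 to 0.27 for prss1, -0.060 to 0.24 for prss60.2, -0.098 to 0.049 for vil1 and -0.19 to 0.23 for fabp2.

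With the low Cy3 background as a block, prss1 was 0.25 and cpb1 0.12 at 1500 µg/L, and 0.19 and 0.13 at 4500 µg/L. On arrays with a Cy3 background of 150 or more, an alternative chosen after seeing the data, prss1 was 0.48 and 0.070 at these concentrations, and cpb1 had too few ratios to be tested. Between BPA groups the same block gave prss1 0.25 (1500 over 500 µg/L), 0.20 (4500 over 500 µg/L) and -0.058 (4500 over 1500 µg/L), and cpb1 0.29 and 0.31 against 500 µg/L, while the deposited ratios gave cpb1 0.14 (4500 over 500 µg/L). Leaving out single replicates, 4500 over 1500 µg/L was -0.17 to 0.68 for prss1, -0.17 to 0.31 for cpb1 and -0.13 to 0.33 for fabp2. The second vil1 probe was -0.092 at 1500 µg/L on the arrays with the higher background.

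Among other genes at 4500 µg/L, prss59.1 was -0.036 with median centring, amy2al1 was 0.032 and amy2a -0.015 with the low-background block, amy2a was -0.11 on the higher-background arrays, enpep was 0.043 with every spot kept and position in ID order, and c3a.1 was -0.046 with position in ID order. fgg was -0.011 with an offset of 10, -0.039 with median centring, -0.038 with the low-background block, -0.40 and -0.34 with position in ID order (kept ratios and every spot) and -0.13 on the higher-background arrays. Leaving out single replicates gave -0.11 to 0.44 for prss59.1, -0.066 to 0.35 for amy2a, -0.18 to 0.022 for enpep and -0.096 to 0.089 for fgg.

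The number of probes called against the control was 0 and 1 at the concentrations 1500 and 4500 µg/L. At 1500 µg/L it was 41 with 18 scans, 4 with 2 values in each group, 506 with array quality weights, 3 with every spot kept, 15 on the higher-background arrays and 0 to 1 without single replicates. At 4500 µg/L it was 257 with 18 scans, 9 with 2 values in each group, 346 with array quality weights, 707 with every spot kept, 272 with every spot kept and position in ID order, and 0 with the deposited ratios, the low-background block, the methods' t-test, no background correction, an offset of 10, the higher-background arrays, the 2 groups alone, position in ID order or the replicate block. Without single replicates it was 0 to 427, the highest without replicate 4 at 4500 µg/L. The cause of these differences was not tested.

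Quantile normalization of average intensity leaves each ratio as it is, so its values are the same by construction. Leaving out an array of a group not compared, or changing only the test, likewise leaves each fold change as it is. Such values could not change direction, and they are counted among the 450. The number of arrays, 3 to 5 in a group, and the dim signal of prss1, cpb1 and fabp2, at its lowest 1.4 to 1.5 times the local Cy5 background, limit the precision.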

Other observations

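Genes of neighbouring organs were measured on the same arrays. Of the liver list, 4 genes were tested. At 4500 µg/L the fibrinogen chains fga and fgb had log2 fold changes of -0.65 ± 0.28 and -0.69 ± 0.30 (SE, adjusted p = 0.204 and 0.211 by limma), whereas the third chain, fgg, had 0.00 ± 0.22 and the complement gene c3a.1 had 0.57 ± 0.29 (adjusted p = 0.990 and 0.268 by limma). The c3a.1 probes 5459669 and 5469667, tested only with every spot kept, had -0.37 ± 0.31 and 0.87 ± 0.33 (adjusted p = 0.509 and 0.138 by limma). fga, fgb and agr2 were each past an unadjusted p of 0.05, where 14.1% of all probes were past it downwards. fga and fgb passed an adjusted p of 0.05 without replicate 4 at 4500 µg/L (-0.93 and -0.97), as did 11.8% of all probes, and fga also with array quality weights (-0.89, adjusted p = 0.0387 by limma), as did 8.92%. With every spot kept, 1 of 18 liver probes was called, a dimmer probe of fga (probe 5460283) that was higher by 1.80 ± 0.40 (SE, adjusted p = 0.0257 by limma), against the direction of the first. It is named after its value was seen. Its call was lost without control replicate 1, 2 or 3 or without replicate 1, 2 or 3 at 4500 µg/L (1.64 to 1.87, adjusted p = 0.0620 to 0.0903 by limma), with the low background as a term (1.3, adjusted p = 0.182 by limma), without the low-background arrays (1.33, adjusted p = 0.281 by limma), without background correction (0.79, adjusted p = 0.0800 by limma), with position in ID order (1.54, adjusted p = 0.0552 by limma) and by the test that the methods name. A further fga probe (probe 5470449), also tested only with every spot kept, had -0.24 ± 0.25 at 4500 µg/L (SE, adjusted p = 0.600 by limma). agr2, which goblet cells use to fold mucin, had -0.66 ± 0.27 at 4500 µg/L (SE, adjusted p = 0.201 by limma). No gene of the endocrine pancreas list had enough kept ratios to be tested. With every spot kept, 11 probes of that list had a median log2 fold change of -0.10 at 4500 µg/L, beside 0.02 over all probes. Of these, 5 were higher and 6 lower, and 0 were called, where 3.08% of all probes were.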
